A study of Mus musculus with 48 samples.

Results

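Astrocytes clear dying cells, debris and surplus synapses with a small set of receptors and bridging proteins, and 9 genes of this set were followed here out of the 24421 gene symbols listed in each deposited table. They were chosen by name, with earlier results of these data known. They are the receptors Mertk, Axl and Tyro3, with their ligands Gas6 and Pros1. The others are the receptor Megf10 and its cytoplasmic adaptor Gulp1, and the secreted bridge Mfge8 with the integrin subunit Itgb5. The libraries were bulk RNA-seq of mouse astrocytes from the cortex, hippocampus and olfactory bulb. The developmental groups were postnatal days 1, 7 and 14 (P1, P7 and P14), with 3 libraries each except cortex P14 with 4, and their labels give no genotype or treatment. At P28, animals labelled Gabbr1 cKO, a conditional knockout of a GABA-B receptor subunit, were compared with animals labelled Gabbr1 control, with 4 control and 4 cKO cortical libraries, 2 and 4 hippocampal ones, and 3 and 3 from the olfactory bulb (bulb from here on). Tamoxifen, the drug used to switch on inducible Cre enzymes, is given as the treatment in 15 of the 20 P28 libraries, controls included, and the other 5, all from cortex, carry no treatment label. The labels do not name the Cre driver, how astrocytes were taken from the dissociated tissue, the sex, or which libraries came from one animal, so p values measure the spread between these libraries, which may in part be technical.

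Dying cells and tagged synapses expose phosphatidylserine, a lipid normally kept on the inner face of the membrane. MERTK, AXL and TYRO3 are receptor tyrosine kinases, together called TAM receptors, that do not bind this lipid themselves: GAS6 and protein S (Pros1) bind it through a vitamin K-dependent gamma-carboxylated domain and activate the receptor with their other end. MEGF10 is a scavenger-type receptor related to the Draper receptor of fly glia, and GULP1 is an adaptor that binds the cytoplasmic tails of such receptors. MFG-E8 bridges phosphatidylserine to integrins of the alpha-v beta-3 and alpha-v beta-5 types, and Itgb5 encodes the beta-5 chain. MERTK and MEGF10 are known for synapse removal by astrocytes in the developing brain.

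A group of 4 genes, Mertk, Axl, Mfge8 and Itgb5, rose from P1 to P14 in each of the 3 regions, and the 250 bases before their RefSeq start (build GRCm38.p6) are printed, 5′ to 3′ on the gene's strand, to show the sequence in front of the genes that moved together. Capitals mark the GC box GGGCGG, on either strand, and the nuclear factor I (NFI) core TTGGC, on either strand. In GRCm38 these windows are Mertk chr2:128698665-128698914 (plus strand), Axl chr7:25788734-25788983 (minus strand), Mfge8 chr7:79149061-79149310 (minus strand) and Itgb5 chr16:33829415-33829664 (plus strand), and all lie outside the gene spans of the GENCODE annotation.
Mertk: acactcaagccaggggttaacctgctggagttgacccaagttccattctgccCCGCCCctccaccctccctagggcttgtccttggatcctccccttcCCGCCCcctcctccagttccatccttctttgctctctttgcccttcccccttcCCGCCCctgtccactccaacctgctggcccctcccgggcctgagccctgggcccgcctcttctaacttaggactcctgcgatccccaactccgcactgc
Axl: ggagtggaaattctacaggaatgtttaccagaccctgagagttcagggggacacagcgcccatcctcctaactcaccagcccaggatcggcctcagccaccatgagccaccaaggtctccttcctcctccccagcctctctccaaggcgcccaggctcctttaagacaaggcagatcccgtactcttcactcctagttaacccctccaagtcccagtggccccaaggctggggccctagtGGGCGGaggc
Mfge8: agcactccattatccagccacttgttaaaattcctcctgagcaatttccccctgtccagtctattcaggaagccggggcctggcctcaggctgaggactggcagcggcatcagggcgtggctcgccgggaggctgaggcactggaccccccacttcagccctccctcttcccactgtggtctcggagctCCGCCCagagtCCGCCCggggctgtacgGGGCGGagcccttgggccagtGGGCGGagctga
Itgb5: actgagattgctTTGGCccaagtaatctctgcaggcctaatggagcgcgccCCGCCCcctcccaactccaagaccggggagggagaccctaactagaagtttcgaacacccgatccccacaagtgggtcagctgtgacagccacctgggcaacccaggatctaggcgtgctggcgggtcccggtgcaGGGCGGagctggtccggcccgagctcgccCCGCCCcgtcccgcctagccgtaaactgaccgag
In the GENCODE annotation of the same assembly, Mertk spans chr2:128698956-128802894, Axl chr7:25757273-25788705, Tyro3 chr2:119797733-119818104 (plus strand), Gas6 chr8:13465374-13494490 (minus strand), Pros1 chr16:62854307-62929346 (plus strand), Gulp1 chr1:44551511-44796838 (plus strand), Mfge8 chr7:79133768-79149060 and Itgb5 chr16:33829665-33949338. A RefSeq window was found for 8 of the 9 genes, Megf10 being the one without. The GC box occurred in 8 of these 8 windows, from 1 match in Axl and Gulp1 to 5 in Pros1, against 32.7% of 32851 RefSeq promoter windows of the same length. The member windows held 54.8% to 73.2% G and C, against a median of 52.4% over all windows, and a G and C rich motif is met more often in such sequence. The NFI core was found in 1 of the 8, Itgb5, against 41.5% of all windows. None of the 8 held the NFI palindrome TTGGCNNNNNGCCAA (0.0365% of all windows), the direct repeat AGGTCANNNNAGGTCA used by liver X receptors (0.0152%), the CCAAT box CCAAT (33.8%) or the TATA box TATAAA (12.4%). The E-box CANNTG, which 66.2% of all windows hold, was found in Gas6, Itgb5, Mfge8 and Pros1. Each motif was searched on both strands, and the NFI core lies inside the NFI palindrome. A match is a run of letters and not a measured binding site.

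Values are normalized read counts, that is, gene reads divided by one factor per library. Differences are on the scale of log2(normalized count + 1) from limma fitted on all genes of a table, and a gene was called where the p value adjusted over all tested genes was under 0.05. Libraries held 1773226 to 15008466 reads assigned to genes, and the P14 olfactory bulb libraries were among the shallowest, at 1773226 to 2669394 reads. The ribosomal RNA precursor Rn45s took 13.7% to 38.0% of reads in 46 of the 48 libraries. The 2 others stand apart in composition: hippocampus P28 cKO replicate 2 had 0.594% and bulb P28 control replicate 2 had 0.476%. Astrocyte markers rose strongly with age: from P1 to P14, 11 of 12 were called higher in cortex and 12 of 12 in each other region. None was at 0 in these groups. Neuronal markers were also present at P1. In the bulb their summed count at P1 (15194 to 18587) was above that of the astrocyte markers (6013 to 8255), so neuronal transcripts are prominent in the P1 bulb libraries. The lists hold different genes, so these sums do not measure the share of RNA from each cell type. In bulk libraries, a change in the share of a cell type and a change in RNA per cell cannot be told apart.

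Most of the 9 genes rose over the first 2 postnatal weeks. All 9 passed the filter on low values in all 6 tables. Within each region the library numbers of the ages form separate blocks, so age and library order cannot be told apart. From P1 to P14, 7 cortical genes were called higher and 1 lower, against a background of 24.0% and 40.3% of all tested genes. The hippocampal counts were 6 and 1 (background 21.0% and 28.5%), and those of the bulb 7 and 1 (24.8% and 31.4%). The median log2 difference of the 9 genes was 0.81 in cortex, 1.73 for hippocampus and 2.60 for the bulb, against -0.27, -0.29 and -0.24 over all tested genes. For the 12 astrocyte markers the median was 2.57, 3.73 and 4.90. In cortex the deposited scaling set the median of all genes below 0, and TMM scaling moved it from -0.27 to 0.00, which changed the calls over all genes from 2843 higher and 4765 lower to 3801 and 3655.

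**Figure D1:**
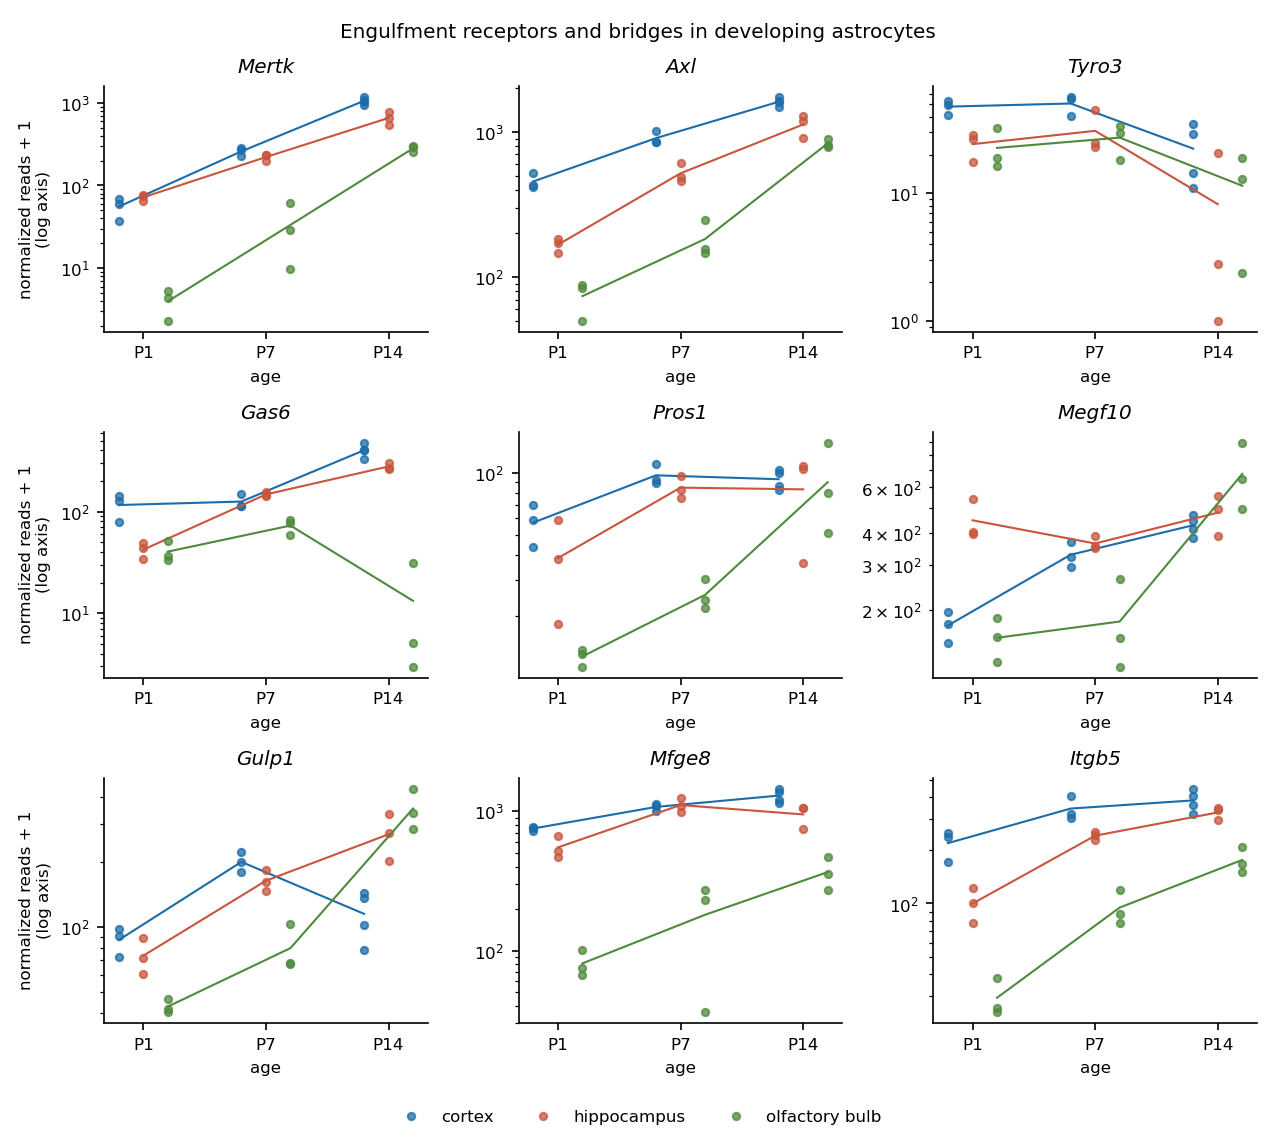
Normalized read count plus 1 (log axis) of the 9 genes at P1, P7 and P14 in cortex, hippocampus and olfactory bulb, with 1 point per library and lines through the group means. Mertk and Axl climb at each age in the 3 regions, Tyro3 is lower at P14, and Gas6 falls at P14 in the bulb.

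The timing differed between genes and regions. From P1 to P7, 7 of 9 cortical genes were called higher and 0 lower (background 15.6% and 18.1%). The hippocampal counts were 6 and 0 (11.2% and 6.92%), and those of the bulb 4 and 0 (7.59% and 2.98%). From P7 to P14 the cortical counts were 5 higher and 2 lower (18.6% and 31.3%), the hippocampal ones 4 and 1 (12.5% and 17.7%), and those of the bulb 6 and 1 (20.4% and 26.6%). In cortex TMM scaling moved the split over all genes from 1850 higher and 2135 lower to 2165 and 1668 for P7 against P1, and from 2197 and 3696 to 3034 and 2718 for P14 against P7. The bulb count of 4 at P7 became 2 when P1 replicate 2, P7 replicate 1 or P7 replicate 2 was left out. The hippocampal count of 5 at P14 against P7 became 3 without any one of P7 replicates 1, 2 and 3 or P14 replicates 1 and 3. The tables of the regions were scaled separately, so differences between regions were not tested.

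Mertk, the TAM receptor most tied to astrocyte engulfment, had the largest rise among the 9 genes in each region. In cortex its normalized counts were 35.8, 59.2 and 68.5 at P1, 225, 267 and 281 at P7, and 1167, 1024, 943 and 1081 at P14. No 2 ages overlapped, and the mean rose 19.3-fold from P1 to P14 (log2 difference 4.29, SE 0.18, limma adjusted p 3.36e-10). In hippocampus the counts were 74.1, 74.8 and 63.9 at P1, 234, 230 and 195 at P7, and 769, 537 and 656 at P14, again with no overlap between ages (log2 difference 3.17 from P1 to P14, SE 0.18, limma adjusted p 1.04e-07). In the bulb Mertk began near the detection limit, with 4.30, 1.32 and 3.31 at P1, which rest on 12, 3 and 6 reads. It reached 28.3, 60.0 and 8.90 at P7 and 290, 296 and 254 at P14. Every P14 bulb library was therefore far above every P1 one (log2 difference 6.22, SE 0.59, limma adjusted p 7.20e-06), while the 3 P7 libraries were widely spread. The P1 to P7 step in the bulb (log2 difference 2.79, limma adjusted p 0.0123) was lost without P1 replicate 2 (limma adjusted p 0.0526), without P7 replicate 1 (0.0570) and without P7 replicate 2 (0.0571).

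Axl, a TAM receptor that binds GAS6 with high affinity, rose at both steps in every region. Its cortical counts were 418, 518 and 431 at P1, 846, 1017 and 856 at P7, and 1597, 1633, 1489 and 1737 at P14. Its hippocampal counts were 171, 182 and 145.6 at P1, 487, 460 and 608 at P7, and 1282, 1182 and 912 at P14. In the bulb Axl was at 49.1, 87.2 and 82.7 at P1, 155.5, 245 and 145.9 at P7, and 900, 815 and 786 at P14. No 2 ages overlapped in any region. From P1 to P14 the mean rose 3.54-fold in cortex (log2 difference 1.83, limma adjusted p 4.63e-09), 6.77-fold in hippocampus (2.74, limma adjusted p 1.99e-07) and 11.4-fold in the bulb (3.54, limma adjusted p 1.07e-06).

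Tyro3, the TAM receptor best known from neurons, was the TAM receptor that was not called higher in any region. In cortex it was 48.6, 40.3 and 51.6 at P1, 53.7, 39.4 and 55.7 at P7, and 33.7, 28.3, 10.1 and 13.5 in the 4 P14 libraries, all of which were below every P1 and P7 library. The difference between P1 and P14 was a log2 change of -1.24 (SE 0.36, limma adjusted p 0.0082), and it was not called under quantile normalization (-0.73, limma adjusted p 0.0741). In hippocampus the P14 libraries held 0, 19.8 and 1.79, from 0, 18 and 1 reads, against 27.4, 25.8 and 16.6 at P1, so 1 P14 library lay within the P1 range. The hippocampal difference was called (log2 difference -2.62, limma adjusted p 0.0323). It was not called by edgeR (adjusted p 0.168) or DESeq2 (adjusted p 0.147), or after leaving out P1 replicate 1 (limma adjusted p 0.0922), P1 replicate 2 (0.0898), P1 replicate 3 (0.0595), P14 replicate 1 (0.0921) or P14 replicate 3 (0.0775). Nor was it called with 0.1 instead of 1 added to the counts (limma adjusted p 0.0555) or under quantile normalization (0.149). The call was also lost without the trend (limma adjusted p 0.0517) and with only the 2 ages fitted (0.0723). The Tyro3 step from P7 to P14 there (log2 difference -2.92, limma adjusted p 0.0313) was likewise lost under edgeR (adjusted p 0.126) and without any one of P7 replicates 1, 2 and 3 or P14 replicates 1 and 3 (limma adjusted p 0.0694 to 0.114). DESeq2 did not call it (adjusted p 0.0899), nor did the same other settings as for P14 against P1 (limma adjusted p 0.0544 to 0.126). In the bulb the counts were 17.9, 31.7 and 15.4 at P1 and 11.9, 1.38 and 18.0 at P14, and the difference was not called (log2 difference -1.37, 95% interval -2.93 to 0.18, limma adjusted p 0.119). Without P14 replicate 3 it was (log2 difference -1.97, limma adjusted p 0.0330). Neuronal markers fell over the same interval: of 12, 10 were called lower in cortex and 9 in each other region, where 1 bulb marker was called higher. Their summed counts were 7620 to 10798 at P1 and 290 to 551 at P14 in cortex. The hippocampal sums were 6490 to 8472 and 450 to 644, and those of the bulb 15194 to 18587 and 2019 to 3188. No marker was at 0 in these groups, and their part in the Tyro3 values was not tested.

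Gas6, the ligand that activates the 3 TAM receptors, was called higher at P14 in cortex and hippocampus and lower in the bulb. In cortex it was 77.6, 141 and 126 at P1, 114, 148.5 and 111 at P7, and 399, 327, 404 and 472 at P14. Its rise lay between P7 and P14 (log2 difference 1.68, SE 0.20, limma adjusted p 1.48e-05). In hippocampus it rose at both steps, from 42.7, 47.7 and 33.2 through 143.1, 141 and 155.2 to 264, 266 and 301 (log2 difference 2.73 from P1 to P14, SE 0.21, limma adjusted p 9.90e-07). In the bulb it was 50.2, 32.6 and 35.3 at P1, 81.7, 75.8 and 58.1 at P7, and 1.99, 4.14 and 30.5 at P14. Those P14 values rest on 1, 3 and 22 reads, and all 3 were below every P1 library. The bulb difference between P1 and P14 was a log2 change of -2.34 (SE 0.70, limma adjusted p 0.0150). Without P1 replicate 1 it was -2.15 and the call was lost (limma adjusted p 0.0546). When each library was left out, this difference ranged from -3.34 to -1.64. The step from P7 to P14 was called (log2 difference -3.20, limma adjusted p 0.0034). Exons of Gas6 overlap those of Tmem255b on the opposite strand in the GENCODE annotation, and whether the authors counted by strand is not given in the sources used here, so reads of the 2 genes cannot be told apart there.

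Pros1 encodes protein S, a blood anticoagulant that is also a ligand of MERTK and TYRO3. In cortex it rose by P7 and then stayed in the same range, at 42.3, 68.5 and 58.0 at P1, 91.2, 110 and 87.9 at P7, and 81.7, 103, 85.1 and 99.2 at P14 (log2 difference 0.72 from P1 to P14, SE 0.19, limma adjusted p 0.0039). In the bulb it rose from 10.4, 12.8 and 12.1 at P1 through 20.9, 29.3 and 23.1 at P7 to 49.7, 78.6 and 139 at P14, with no overlap between ages (log2 difference 2.70, SE 0.40, limma adjusted p 0.000183). In hippocampus the libraries were widely spread at P1 (58.0, 17.4 and 36.9) and P14 (35.5, 107 and 104). The P7 libraries, at 95.4, 74.4 and 81.4, lay above every P1 library, but that step was not called (log2 difference 1.29, limma adjusted p 0.103). It was called under quantile normalization (limma adjusted p 0.0404), with array weights (0.0114) and with only the 2 ages fitted (0.0141). Between P1 and P14 the hippocampal difference was not called (log2 difference 1.11, 95% interval 0.02 to 2.20, limma adjusted p 0.0834). That P1 to P14 difference was called without P1 replicate 1, the highest of P1 (log2 difference 1.497, limma adjusted p 0.0430), and without P14 replicate 1, the lowest of P14 (limma adjusted p 0.0088). It was also called under quantile normalization (limma adjusted p 0.0259) and by DESeq2 (adjusted p 0.0345).

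Megf10, a receptor that astrocytes use for synapse and corpse removal, was already high at P1 in hippocampus. Its hippocampal counts were 396, 401 and 542 at P1, 347, 386 and 354 at P7, and 554, 386 and 494 at P14, and no step was called (log2 difference 0.10 from P1 to P14, 95% interval -0.29 to 0.48, limma adjusted p 0.666). Under quantile normalization the sign was negative (-0.07). Without P14 replicate 2 the step from P7 to P14 was called (log2 difference 0.53, limma adjusted p 0.0327). In cortex it rose from 148.02, 196 and 177 at P1 to 293, 369 and 321 at P7 and 381, 414, 469 and 443 at P14, with no overlap between ages (log2 difference 1.30 from P1 to P14, SE 0.12, limma adjusted p 8.53e-07). The later cortical step (log2 difference 0.38, limma adjusted p 0.0207) was lost without P7 replicate 1 (limma adjusted p 0.0975), P7 replicate 3 (0.0561) or P14 replicate 3 (0.0544). In the bulb the rise came late: 125, 185 and 156.1 at P1 and 154.9, 264 and 119.8 at P7 overlapped, and 892, 644 and 493 at P14 lay above both (log2 difference 1.94 from P7 to P14, SE 0.30, limma adjusted p 0.000376).

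Gulp1, the adaptor, peaked at P7 in cortex and kept rising in the other regions. The cortical counts were 71.6, 89.4 and 96.2 at P1, 220, 198 and 177 at P7, and 100.3, 142.1, 135 and 76.8 at P14. Every P7 library was above every P1 and P14 library, and both the rise (log2 difference 1.21, SE 0.22, limma adjusted p 0.000826) and the later fall (-0.83, SE 0.20, limma adjusted p 0.0040) were called. The cortical difference from P1 to P14 was 0.37 and was not called (limma adjusted p 0.125). It was called under TMM scaling (0.65, limma adjusted p 0.0114), quantile normalization (0.65, limma adjusted p 0.0112) and median-ratio scaling (0.62, limma adjusted p 0.0151). The same held for edgeR (0.62, adjusted p 0.0162), DESeq2 (0.65, adjusted p 0.0054) and the fit without P14 replicate 4 (0.54, limma adjusted p 0.0168). In hippocampus Gulp1 went from 87.3, 59.3 and 70.7 at P1 through 182, 144.5 and 159.9 at P7 to 330, 201 and 269 at P14 (log2 difference 1.85 from P1 to P14, SE 0.24, limma adjusted p 6.00e-05). The later step (log2 difference 0.69, limma adjusted p 0.0464) was lost when any 1 library of P7, or P14 replicate 1 or 3, was left out (limma adjusted p 0.0782 to 0.164). With all libraries it was lost under quantile normalization (limma adjusted p 0.0989), with array weights (0.110) and without the trend (0.0726). It was also lost without the filter on low values (limma adjusted p 0.0513) and with only the 2 ages fitted (0.0611). In the bulb the counts were 40.5, 45.4 and 39.2 at P1, 67.0, 102.2 and 66.4 at P7, and 433, 336 and 283 at P14 (log2 difference 3.02, SE 0.24, limma adjusted p 2.17e-06). The early bulb step (log2 difference 0.87, limma adjusted p 0.0432) was lost when any 1 library of P1, or P7 replicate 1 or 2, was left out (limma adjusted p 0.0809 to 0.201). With all libraries it was lost under TMM scaling (limma adjusted p 0.0534) and quantile normalization (0.0546). It was also lost without the filter on low values (limma adjusted p 0.0527) and without the trend in limma (0.0673).

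Mfge8, the secreted bridge to integrins, rose 1.72-fold in cortex, 1.73-fold in hippocampus and 4.57-fold in the bulb from P1 to P14. In the cortex it was 773, 754 and 726 at P1, 1123, 1089 and 1006 at P7, and 1384, 1203, 1141 and 1448 at P14 (log2 difference 0.78 from P1 to P14, SE 0.09, limma adjusted p 7.93e-06). The later cortical step (log2 difference 0.27, limma adjusted p 0.0320) was lost under quantile normalization (0.06, limma adjusted p 0.636) and without the trend in limma (limma adjusted p 0.0917). The call was also lost without P7 replicate 2 (limma adjusted p 0.0577), P7 replicate 3 (0.113), P14 replicate 1 (0.0816) or P14 replicate 4 (0.0915). In hippocampus the counts were 521, 662 and 464 at P1, 987, 1085 and 1247 at P7, and 1054, 739 and 1050 at P14 (log2 difference 0.78 from P1 to P14, SE 0.18, limma adjusted p 0.0034). The hippocampal rise lay between P1 and P7 (log2 difference 1.02, limma adjusted p 0.0018). From P7 to P14 the difference there was -0.24 and was not called (limma adjusted p 0.345). Under quantile normalization that later step was called lower (-0.63, limma adjusted p 0.0107). In the bulb Mfge8 was 66.0, 99.1 and 74.5 at P1 and 469, 270 and 354 at P14 (log2 difference 2.16, SE 0.61, limma adjusted p 0.0110). The bulb P7 libraries held 230, 273 and 35.003, and without the low one, replicate 3, the P7 to P1 difference was called (log2 difference 1.66, limma adjusted p 0.0037).

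Itgb5, the integrin beta-5 chain, rose early in each region. In cortex it was 170, 249 and 236 at P1, 321, 403 and 304 at P7, and 404, 443, 319 and 358 at P14, where P7 and P14 overlapped (log2 difference 0.81 from P1 to P14, SE 0.16, limma adjusted p 0.000465). In hippocampus it was 99.7, 121 and 76.2 at P1, 252, 228 and 241 at P7, and 345, 336 and 296 at P14, with no overlap (log2 difference 1.73, SE 0.20, limma adjusted p 2.19e-05). In the bulb it was 23.3, 37.0 and 24.8 at P1, 76.2, 118.7 and 86.6 at P7, and 167, 150.2 and 208 at P14, again with no overlap (log2 difference 2.60, SE 0.27, limma adjusted p 1.48e-05). The later bulb step (log2 difference 0.91, limma adjusted p 0.0180) was lost without P7 replicate 1 (limma adjusted p 0.0747) or P7 replicate 3 (0.0603), and with array weights (0.146).

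**Figure D2:**
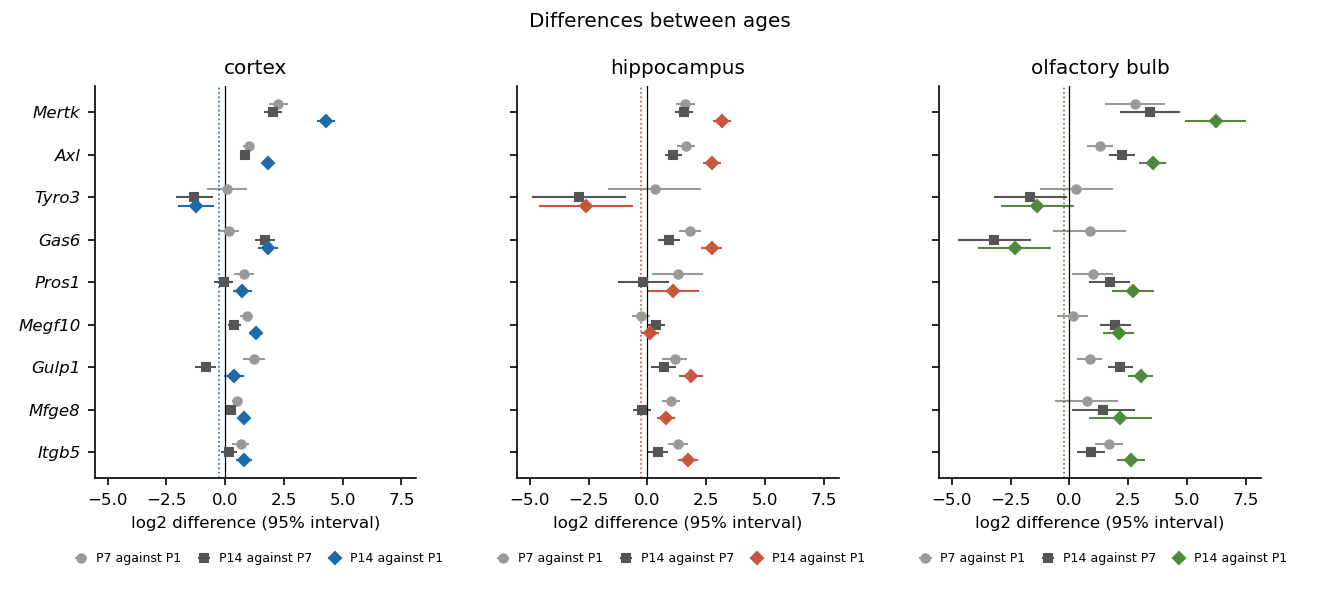
Log2 difference in log2(normalized count + 1) between ages for each gene and region, as points with 95% intervals from limma; the dotted line is the median of all tested genes for P14 against P1. Mertk has the largest rise in each region, from 3.17 in hippocampus to 6.22 in the bulb, while Tyro3 lies below 0 for P14 against P1 in the 3 regions (not called in the bulb) and Gas6 in the bulb alone.

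Per kilobase of exon, which allows levels of different genes to be set side by side within a table, Mfge8 led at P1 in cortex (160 ± 5.06 normalized counts per kilobase, SD, n = 3), followed by Axl (90.5 ± 10.7) and Itgb5 (61.4 ± 11.9), with Mertk next to last (12.6 ± 3.89) and Tyro3 last (7.55 ± 0.943). At P14 the cortical order began with Axl (321 ± 20.3, SD, n = 4), Mfge8 (276 ± 31.0) and Mertk (243 ± 21.8), where the libraries of neighbours overlap, and Tyro3 was again last (3.45 ± 1.84). In hippocampus Mfge8 (117 ± 21.6, SD, n = 3) led at P1 and Megf10 (57.8 ± 10.8) came next, and Axl (224 ± 38.1) led at P14 ahead of Mfge8 (202 ± 38.5) by less than their spread. In the bulb Megf10 (20.1 ± 3.90, SD, n = 3), Mfge8 (17.0 ± 3.66), Gas6 (15.4 ± 3.72) and Axl (14.5 ± 4.14) were within their spread of each other at P1, and Mertk was last (0.687 ± 0.350). At P14 Axl led there (166 ± 11.8), followed by Gulp1 (93.4 ± 20.3) and Megf10 (87.6 ± 26.1), whereas Gas6 (4.80 ± 6.24) was next to last. The order of the receptors within each region at P14 was therefore Axl, then Mertk or Megf10, with Tyro3 lowest.

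Across the libraries of a developmental table (10 in cortex, 9 in each other region), Axl and Mertk had a mean Pearson's r of 0.97 over the 3 tables, and Itgb5 stood at 0.93 with Axl and 0.91 with Mertk. Tyro3 ran the other way, at -0.61 with Mertk. Among 10428 candidate genes, those most like Mertk were Fgfr3 (mean r 0.991), a fibroblast growth factor receptor that also served as an astrocyte marker here, Kcna2 (0.987), a voltage-gated potassium channel, and Lsamp (0.986), a cell adhesion molecule. Those most like Axl were Mlc1 (0.993), a membrane protein of astrocyte endfeet, Ttyh1 (0.992) and Pbxip1 (0.989). The closest genes were Ppp1r3c for Itgb5 (0.954), Ednrb, an endothelin receptor, for Gulp1 (0.940), Entpd2 for Mfge8 (0.935), Galnt7 for Tyro3 (0.902), Lactb2 for Pros1 (0.897), Lix1 for Gas6 (0.869) and Txndc16 for Megf10 (0.862). These correlations share libraries and age, and they are descriptions of likeness over few points.

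The other steps of engulfment were read from lists of genes with known roles. Of 22 other engulfment receptors, 12 were tested in cortex and 9 in each other region. For P14 against P1 in cortex, hippocampus and bulb, 5, 4 and 5 were called higher and 2, 1 and 0 lower. Over all tested genes, 24.0%, 21.0% and 24.8% were called higher and 40.3%, 28.5% and 31.4% lower. Itgav, the alpha-v chain that pairs with the beta-5 chain, rose in each region, from 727 ± 136 (SD, n = 3) to 2595 ± 176 (SD, n = 4) in cortex (log2 difference 1.85, limma adjusted p 1.78e-08), by 2.00 on the log2 scale in hippocampus (limma adjusted p 7.26e-07) and by 2.06 in the bulb (limma adjusted p 6.03e-05). Lrp1, an endocytic receptor of which GULP1 is a known partner, rose in cortex from 1236 ± 28.6 to 3503 ± 442 (log2 difference 1.49, limma adjusted p 2.26e-08) and in hippocampus by 1.90 (limma adjusted p 5.66e-07). Adgrb1, the phosphatidylserine receptor BAI1, rose in the bulb from 206 ± 15.3 to 1917 ± 135 (SD, n = 3; log2 difference 3.21, limma adjusted p 9.21e-08).

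Of the genes that carry the signal to the cytoskeleton, 8 of 18 tested in cortex were called higher and 2 lower, where 24.0% of all genes were called higher and 40.3% lower. With TMM scaling they became 12 and 1, beside 3801 higher and 3655 lower of all 11822 genes. The hippocampal counts were 7 and 3 of 17 (21.0% and 28.5% of all genes), and those of the bulb 8 and 2 of 18 (24.8% and 31.4%). Elmo2 and Dock1, partners in the exchange factor that activates the small GTPase RAC1, were both called higher in the 3 regions, by 2.26 and 1.28 on the log2 scale (cortex), 1.74 and 1.72 (hippocampus) and 2.21 and 2.54 (bulb). Elmo1 of the same list was called lower in cortex (log2 difference -0.57, limma adjusted p 0.0354) and bulb (-1.17, limma adjusted p 0.000921). Its cortical call was lost under other scaling (limma adjusted p up to 0.259). Ptk2 was called lower in hippocampus (-0.88, limma adjusted p 0.00054), so this list does not move as one. At the far end of the pathway, 31 genes of phagosome and lysosome maturation were tested. Of these, 21 cortical ones were called higher and 2 lower, 17 and 2 hippocampal ones, and 18 and 3 in the bulb. These counts stand beside the same shares of all genes as those of the signalling list. Ctsd, a lysosomal protease, rose by 1.74 on the log2 scale in cortex (limma adjusted p 4.12e-09) and by 2.07 in hippocampus (limma adjusted p 3.38e-06), and Ctsb, another such protease, rose by 2.86 in the bulb (limma adjusted p 3.40e-07).

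Genes that set phosphatidylserine exposure were called lower more often than higher, with 2 called higher and 6 lower of 11 tested (cortex), 2 and 6 of 10 (hippocampus) and 2 and 5 of 9 (bulb). Over all tested genes, too, more were called lower than higher in each region (40.3% against 24.0%, 28.5% against 21.0% and 31.4% against 24.8%). The genes called lower included Atp11b, of the family of flippases that return the lipid to the inner leaflet, with a log2 difference of -1.61 for hippocampus (limma adjusted p 1.89e-05) and -1.09 for the bulb (0.00022). Tmem30a, the shared subunit of such flippases, and the flippase Atp8a1 were called higher in the 3 regions, so the list does not move as one. Of 5 inhibitory and shedding factors, 3 were called higher and 1 lower (cortex), 3 and 2 (hippocampus), and 2 and 1 (bulb). Sirpa, the receptor of the "do not eat me" signal CD47, rose by 2.27, 2.31 and 1.76, and Cd24a, a glycoprotein common on immature neurons, fell from 2620 ± 441 (SD, n = 3) to 28.7 ± 7.94 (SD, n = 4) in cortex and by 5.58 and 4.25 on the log2 scale in hippocampus and olfactory bulb. Complement genes and receptors gave 6 higher and 1 lower of 8 cortical ones tested (6 and 0 with TMM scaling), 4 and 1 of 7 hippocampal ones, and 3 and 0 of 6 in the bulb. Clu, an astrocyte-secreted chaperone and complement inhibitor, had log2 differences of 4.35, 4.34 and 6.70. The vitamin K and gamma-carboxylation genes, which mature GAS6 and protein S, gave 1 higher and 1 lower of 5 cortical ones tested (1 and 0 with TMM scaling), 0 and 0 of 4 hippocampal ones, and 2 and 0 of 5 in the bulb. Set beside the medians of all tested genes given above, the median log2 differences for cortex, hippocampus and bulb were 0.62, 0.94 and 0.97 for the phagosome and lysosome list. They were -0.71, -1.28 and -0.81 for phosphatidylserine exposure, 1.497, 1.91 and 2.48 for complement, 0.30, 0.37 and 0.16 for signalling, and 0.75, 0.12 and 0.69 for the other receptors. The 5 inhibitory and shedding factors stood at 0.42, 0.72 and 0.18, and the carboxylation genes at 0.22, -0.23 and 0.32.

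**Figure D3:**
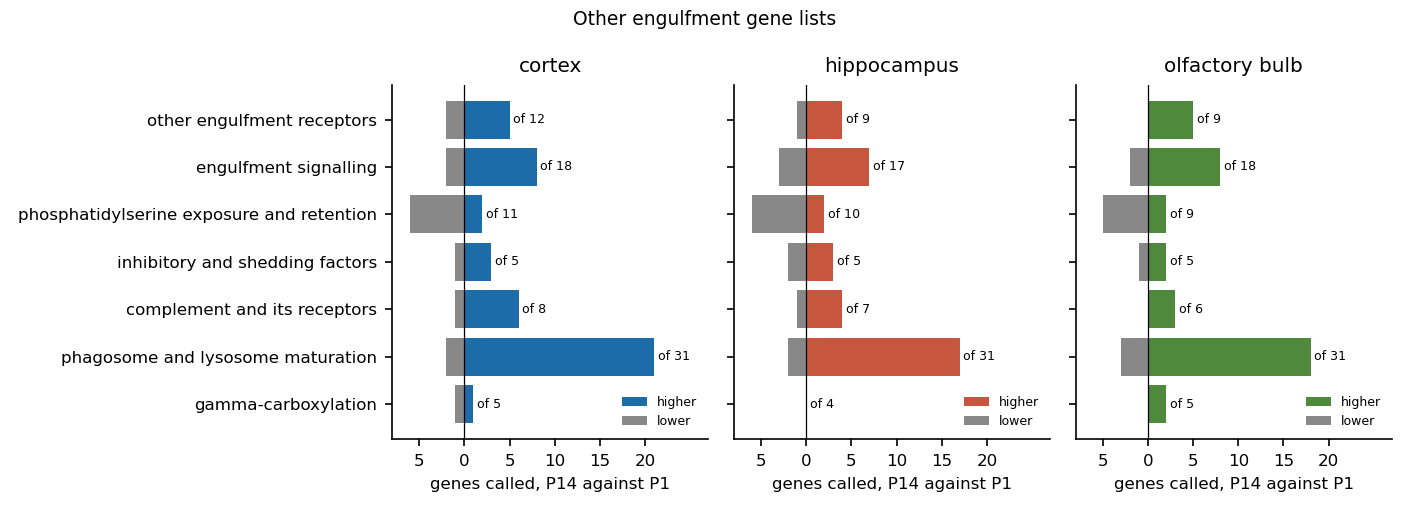
Number of genes of each engulfment list called higher (coloured bars, to the right) or lower (grey bars, to the left) at P14 against P1 in limma, with the number tested. Lysosome genes were called mostly higher (21, 17 and 18 of 31), and phosphatidylserine exposure genes mostly lower (6 of 11, 6 of 10 and 5 of 9). Over all tested genes, 24.0%, 21.0% and 24.8% were called higher and 40.3%, 28.5% and 31.4% lower.

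Markers of other cells that express engulfment genes moved with age too. Microglia and macrophages carry MERTK, AXL, complement and many lysosomal enzymes, and their 12 cortical markers summed to 445 to 998 at P1 and 1864 to 3959 at P14 (11 of 12 called higher). The hippocampal sums were 150 to 236 and 324 to 830 (5 of 9 tested called higher), and those of the bulb 61.8 to 136 and 390 to 587 (8 of 9), with none at 0 in these groups. Endothelial markers, of a cell type that makes protein S, summed to 33.2 to 543 and 88.7 to 883 in cortex (2 of 9 called higher, none at 0). The hippocampal sums were 49.2 to 125 and 10.7 to 136 (1 higher and 2 lower of 7, with Cldn5, Ly6c1 and Egfl7 at 0 at P14). Those of the bulb were 20.7 to 28.7 and 298 to 1567 (7 of 8 higher, with Ly6c1 at 0 at P1). Mature oligodendrocyte markers summed to 106 to 120 at P1 and 14336 to 25131 at P14 in cortex (7 of 8 called higher, Opalin at 0 at P1). The hippocampal sums were 49.9 to 66.4 and 1046 to 1755 (3 of 3 called higher, Mobp and Opalin at 0 at P1, Mog and Opalin at P14). Those of the bulb were 95.4 to 172 and 1656 to 1906 (4 of 5, Mag and Opalin at 0 at both ages). Olfactory ensheathing markers, some of which oligodendrocytes or immature astrocytes also express, summed to 2723 to 3265 at P1 and 12438 to 16919 at P14 in the bulb (7 of 7 called higher, none at 0). Choroid plexus and ependymal markers summed to 46.3 to 84.05 at P1 and 4069 to 8496 at P14 in hippocampus (3 of 4 called higher, Tmem212 at 0 at P1 and Ccdc153 at P14). Markers of dividing cells summed to 1288 to 1916 at P1 and 128 to 273 at P14 in cortex (7 of 7 called lower, none at 0). The hippocampal sums were 2701 to 2796 and 539 to 1182 (6 of 8 called lower), whereas those of the bulb, 1656 to 1723 and 851 to 1730, overlapped (1 of 7 called lower), with none at 0. The part of these cells in the engulfment genes was not tested.

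At P28 the targeted gene was checked first. Gabbr1 was 1746, 1930, 1159 and 927 in the cortical controls and 89.8, 96.5, 134 and 211 in the cortical cKO libraries (log2 difference -3.45, SE 0.29, limma adjusted p 4.40e-05). The hippocampal values were 780 and 824 against 167, 380, 151.7 and 256, and those of the bulb 318, 184 and 189 against 63.6, 99.5 and 78.2, so the genotypes were separate in each region. The differences in hippocampus (log2 difference -1.84, limma adjusted p 0.936) and olfactory bulb (-1.48, limma adjusted p 0.877) were not called after adjustment over all genes.

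None of the 9 genes was called between genotypes in any region by limma, edgeR or DESeq2. The limma background was 0.00982% of cortical genes called (1 gene, Gabbr1), and 0% for hippocampus and 0% for the bulb. At an unadjusted limma p under 0.05 there were 0 of the 9 for cortex, 2 for hippocampus and 2 for the bulb, against 221, 296 and 349 of all genes (2.17%, 2.54% and 3.02%). In cortex the 9 differences lay close to 0, with a median of 0.04, and all 9 genes overlapped between genotypes. The cortical intervals were narrow for Megf10 (log2 difference -0.10, 95% interval -0.49 to 0.29), Mertk (0.16, -0.26 to 0.58) and Axl (0.25, -0.20 to 0.70), and wide for Tyro3 (-0.11, -1.16 to 0.94).

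**Figure D4:**
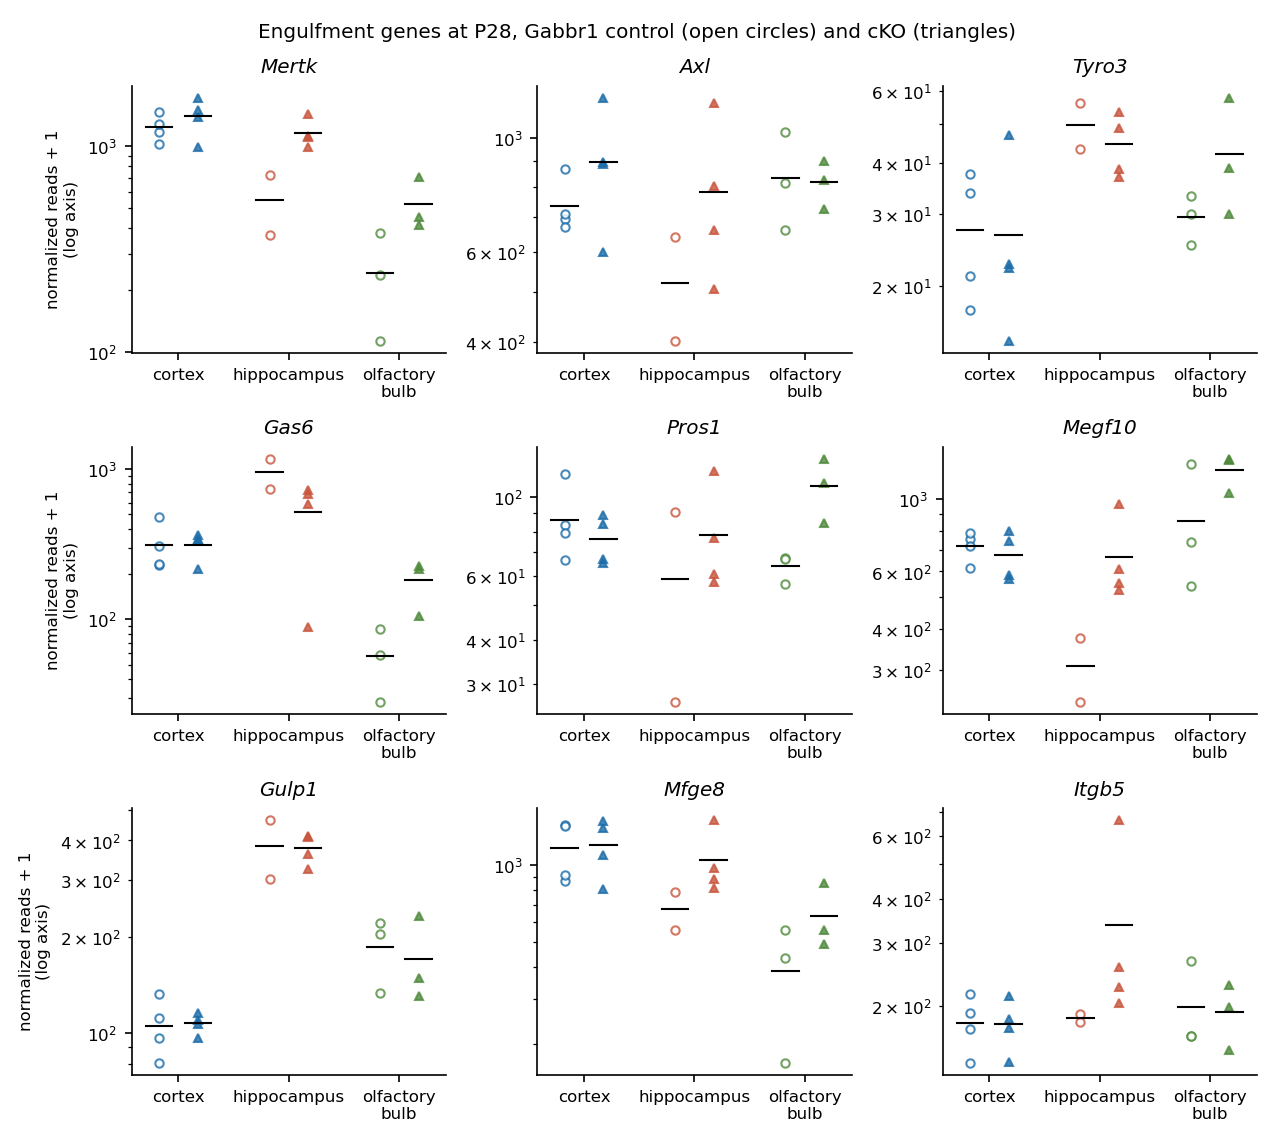
Normalized read count plus 1 (log axis) of the 9 genes at P28, with open circles for Gabbr1 control and triangles for cKO libraries and black bars at the group means. In cortex every gene overlaps between genotypes, while Mertk lies higher in every cKO library of hippocampus and olfactory bulb.

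In hippocampus and olfactory bulb several genes did not overlap between genotypes, although none was called. Mertk was 370 and 723 in the hippocampal controls and 993, 1121, 1106 and 1426 in the cKO libraries (log2 difference 1.15, 95% interval 0.43 to 1.88, limma adjusted p 0.936). In the bulb it was 237, 112 and 378 in controls and 415, 451 and 708 in cKO libraries (log2 difference 1.24, 95% interval 0.33 to 2.14, limma adjusted p 0.877). Every cKO library was thus above every control in both regions, though the labels do not say whether libraries of different regions came from the same animals. In cortex the Mertk values 1024, 1173, 1278 and 1472 in controls and 993, 1388, 1493 and 1713 in cKO overlapped. Exact two-sided permutation tests, which double the smaller tail, gave p = 0.133 in hippocampus and p = 0.1 in the bulb. With that doubling these are the smallest values possible for 4 against 2 and 3 against 3 libraries. In cortex the permutation test gave p = 0.486, where the smallest possible is 0.0286. In all, 27 such tests were made on the 9 genes, and 3 more on Gabbr1, and none is adjusted. Without olfactory bulb control replicate 2, the library with little Rn45s, the bulb difference of Mertk was 0.77 (limma adjusted p 0.986), and without hippocampus control replicate 1 the hippocampal difference was 0.67 (limma adjusted p 1.00). That fit leaves 1 control library, which is assumed to vary like the cKO libraries.

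Among the 9 genes, 4 hippocampal ones (Mertk, Megf10, Mfge8 and Itgb5) had every cKO library above every control and 1 (Gas6) had every cKO library below, against 7.08% and 7.92% of all tested genes. In the bulb 3 genes (Mertk, Gas6 and Pros1) were separate with cKO higher and 0 with cKO lower, against 5.30% and 4.71% of all genes, and the cortical counts were 0 and 0 against 0.864% and 1.03%. Leaving out a library cannot make separate groups overlap, so these genes had to stay separate without the library of outlying Rn45s share. No other of the 9 genes joined them, while the backgrounds became 11.0% and 11.5% in hippocampus and 9.20% and 8.22% in the bulb. Under TMM scaling Mfge8 was no longer among those of hippocampus. The median difference of the 9 genes was 0.61 in hippocampus and 0.61 in the bulb, against -0.04 and 0.02 over all genes.

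Megf10 was 238 and 375 in the hippocampal controls and 525, 968, 609 and 552 in cKO libraries (log2 difference 1.10, 95% interval 0.35 to 1.86, limma adjusted p 0.936), and 738, 540 and 1281 against 1043, 1321 and 1326 in the bulb, where the groups overlapped (0.61, -0.06 to 1.28). Mfge8 was 557 and 786 against 884, 815, 974 and 1496 in hippocampus (log2 difference 0.61, -0.10 to 1.33). Itgb5 was 189 and 180 against 225, 663, 256 and 203 in hippocampus, and without the high library, cKO replicate 2, its difference went from 0.68 to 0.30. Gas6 differed in direction between the regions. It was 1165 and 741 in the hippocampal controls and 585, 88.1, 683 and 725 in cKO libraries (log2 difference -1.21, 95% interval -2.92 to 0.49), and without cKO replicate 2, the low library, the difference was -0.49. In the bulb it was 85.0, 27.2 and 56.8 in controls and 217, 227 and 104 in cKO libraries (log2 difference 1.74, 95% interval 0.70 to 2.78, limma adjusted p 0.877). Pros1 in the bulb was 56.3, 66.4 and 66.2 in controls and 126, 83.6 and 108 in cKO libraries (log2 difference 0.73, 95% interval -0.01 to 1.47). Axl, Tyro3 and Gulp1 overlapped between genotypes in the 3 regions, with log2 differences from -0.17 to 0.56.

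**Figure D5:**
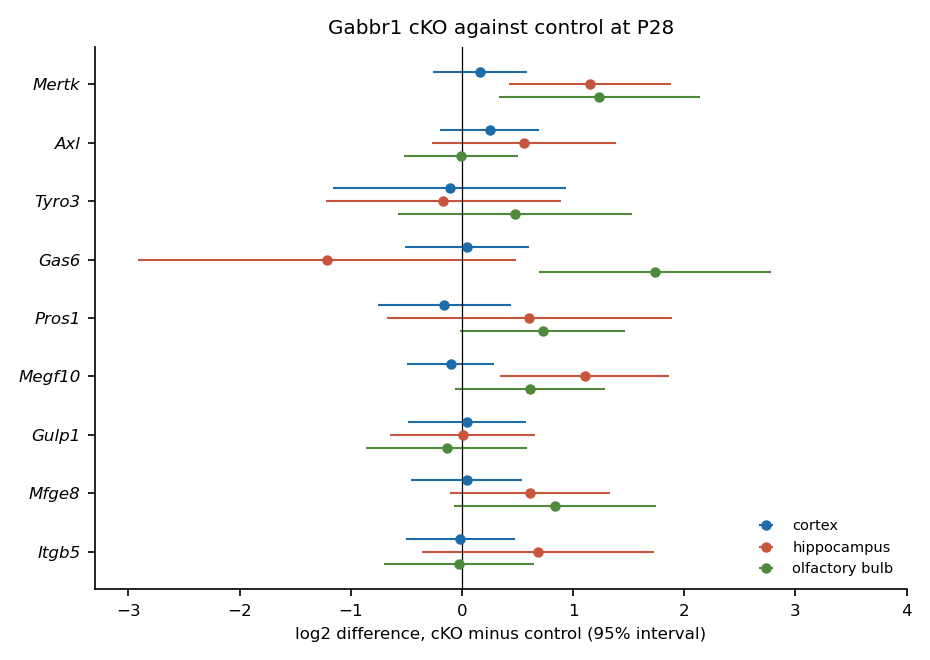
Log2 difference at P28, cKO minus control, in log2(normalized count + 1), with 95% intervals from limma, for each gene and region. Intervals that leave out 0 are those of Mertk (1.15) and Megf10 (1.10) in hippocampus and of Mertk (1.24) and Gas6 (1.74) in the bulb.

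In hippocampus, the summed markers of microglia and of mural cells and fibroblasts also separated the genotypes at P28. Among single genes tested there, 7.08% were separate with cKO higher and 7.92% with cKO lower. The sums of neuronal, oligodendrocyte precursor, mature oligodendrocyte, endothelial, olfactory ensheathing, blood, dividing-cell and astrocyte markers overlapped between genotypes. Microglial markers summed to 150 to 194 in controls and 239 to 1348 in cKO libraries, so every cKO library was above every control, as for Mertk (0 of 9 tested called, none at 0). Mural and fibroblast markers were separate in the same direction, at 256 to 410 and 426 to 770 (0 of 9 called, Kcnj8 at 0 in controls). Choroid plexus and ependymal markers overlapped, at 67883 to 139490 and 11268 to 127133 (0 of 6 called, Tmem212 at 0 in controls). Hippocampus cKO replicate 2, the library lowest in Gas6, highest in Itgb5 and apart by Rn45s, had the lowest choroid plexus sum (11268) and the highest astrocyte sum (428460, against 144035 to 273637 in the other cKO libraries and 179647 to 203102 in controls). In the bulb, microglial markers overlapped between genotypes, at 246 to 583 in controls and 193 to 437 in cKO libraries (0 of 7 called, none at 0). Endothelial markers there summed to 88.4 to 267 in controls and 181 to 398 in cKO libraries, with 0 of 8 called and none at 0, and astrocyte markers to 116081 to 165352 and 145595 to 163200. The part of these cell types in the values of the 9 genes was not tested. None of the genes of the other engulfment lists was called between genotypes in any region by limma.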

How the data were processed

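Each of the 6 deposited tables covers 1 region, at the 3 ages or at P28, and gives a normalized signal (gene reads divided by a factor per library) from the authors. Per the submitters' processing notes, STAR 2.5.0a, DESeq2 1.20.0 and build mm10 were used; the counting program, its strand setting and the annotation are not given in the sources used here. Per the labels' protocols, the Trio RNA-seq kit turned low amounts of RNA into libraries. All values of the deposited signal were whole multiples of 1 step per library (100% whole within 0.01 read), so reads were recovered; for olfactory bulb P28 cKO replicate 2 the check is weak because its step is close to 1. Counting intervals would cover counting error only. Replicate libraries were not duplicates: r across genes was 0.707 to 0.982, and the chi-square per degree of freedom was at least 7.39.

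Genes with a table mean of at least 10 (10188 to 11822 per table) were tested with limma 3.58.1 (lmFit, eBayes with trend, R 4.3.3) on log2(value + 1), which understates the change of low genes, with Benjamini-Hochberg adjustment over all genes of a table. Libraries were grouped by their labels and not compared across tables. edgeR 4.0.16 and DESeq2 1.42.0 were run on recovered reads. Exact permutation tests (scipy 1.17.1) at P28 are unadjusted; an adjustment over the 9 genes had been planned. The alternatives also covered pseudocounts (0.1 and 8), the filter (none, or a mean of 100), TMM, quantile and median-ratio scaling, no trend, array weights, a 2-fold requirement, a fit of only the ages compared, the library numbers 157 to 162 as a covariate or left out, and leaving out each library. The limma fit was also run on simulated data in which few genes changed, in equal numbers up and down. Far more genes were called in the developmental tables, with an uneven split, so that run does not cover them. Exon lengths and overlaps came from GENCODE M21. Date-like symbols, 27 per table in 5 tables, were restored to gene names.

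Genes named are the 9 members, up to 2 rises and 2 falls per list and region among called genes with a table mean of at least 100, the genes most like a member by mean Pearson's r, Gabbr1 and Rn45s; an item that the rule names is not reported here. The members and all lists were chosen with earlier results of these data known. Counts of separate genes at P28 without the outlying library or under TMM scaling were added after seeing the data.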

Additional observations from a re-analysis of the deposited data

Results flagged for a closer look

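In hippocampus P28 cKO, Itgb5 replicate 2 lay far above the other 3 libraries, with a gap of 0.883 of the group's range. Among 36 checks, each of a single gene in a group of 4 libraries, 1 was flagged, and chance flags about 1 in 20. The checks share libraries, so they are not independent. That library is the one with 0.594% Rn45s.

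Several genes moved in opposite directions in different regions with no overlap between the groups in either region; these differences between regions were not tested, since the tables were scaled separately. Gas6 rose from P7 to P14 by 1.68 on the log2 scale in cortex and 0.91 in hippocampus, and its difference in olfactory bulb was -3.20. From P1 to P14 the cortical Gas6 difference was 1.82 and the hippocampal one 2.73, against -2.34 for the bulb. Between genotypes at P28 the Gas6 differences, neither of them called, were -1.21 in hippocampus and 1.74 in olfactory bulb. The Megf10 difference from P1 to P7 was 0.92 in cortex, where it was called, and -0.29 in hippocampus, where it was not. The Gulp1 difference from P7 to P14 was -0.83 in cortex, against 0.69 for hippocampus and 2.15 for the bulb.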

How the results depend on the processing

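Of 59 called member differences, 0 reversed under any alternative, and 49 were called under every alternative that could test them, other than the added 2-fold requirement; the 10 others are given with their values in the results. With the 2-fold requirement the members called were 2 for cortex P7 against P1, 3 for cortex P14 against P7, 5 for cortex P14 against P1 and 3 for hippocampus P14 against P7. The last count was also 3 without the trend and 3 with only the 2 ages compared, and ranged from 3 to 6 when each library was left out. For olfactory bulb P7 against P1 the count ranged from 2 to 5 when each library was left out. With a minimum table mean of 100, fewer members could be tested, and 4 were called for olfactory bulb P14 against P7 and 5 for P14 against P1.

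Some uncalled differences changed sign, and the cause was not tested. Not all of them were near 0: Pros1 in hippocampus P28 was 0.61 with all libraries. Pros1 in cortex from P7 to P14 was 0.12 under TMM scaling, 0.098 under quantile normalization, 0.11 under median-ratio scaling, 0.077 with edgeR and 0.10 with DESeq2, and in hippocampus 0.0042 with edgeR and 0.020 with DESeq2. Gas6 in cortex from P1 to P7 was -0.073 with array weights, and Megf10 in hippocampus from P1 to P14 was -0.074 under quantile normalization. At P28, Gas6 in cortex was -0.13 with the later library numbers as a covariate and -0.15 with the earlier ones alone, and Itgb5 there was 0.019 and 0.11. Mfge8 in cortex was -0.13 with array weights. Gulp1 in hippocampus was -0.014 with TMM, -0.034 with quantile normalization, -0.054 with array weights, -0.027 with edgeR and -0.023 with DESeq2. In olfactory bulb, Axl was 0.040 with TMM and 0.046 with quantile normalization, and Itgb5 0.021 and 0.010. When each library was left out, the signs of these uncalled differences also changed, with the lowest and highest values in parentheses: Axl in olfactory bulb P28 (-0.16 to 0.15), Gas6 in cortex P28 (-0.080 to 0.28), Gas6 in cortex P7 against P1 (-0.11 to 0.31), Gulp1 in cortex P28 (-0.072 to 0.17), Gulp1 in hippocampus P28 (-0.30 to 0.31), Gulp1 in olfactory bulb P28 (-0.38 to 0.035), Itgb5 in cortex P28 (-0.13 to 0.10), Itgb5 in olfactory bulb P28 (-0.16 to 0.21), Megf10 in hippocampus P14 against P1 (-0.015 to 0.25), Megf10 in olfactory bulb P7 against P1 (-0.17 to 0.40), Mfge8 in cortex P28 (-0.083 to 0.22), Pros1 in cortex P14 against P7 (-0.12 to 0.034), Pros1 in hippocampus P14 against P7 (-0.45 to 0.34), Pros1 in hippocampus P28 (-0.27 to 1.49), Tyro3 in cortex P28 (-0.43 to 0.13), Tyro3 in cortex P7 against P1 (-0.029 to 0.23), Tyro3 in hippocampus P28 (-0.35 to 0.022), Tyro3 in hippocampus P7 against P1 (-0.00020 to 0.49).

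No paired analysis was possible because the labels carry no replicate numbers or animals shared between groups. Depth limits Tyro3 and bulb Mertk at P1 and Gas6 at P14, which rest on 0 to 22 reads in some libraries.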
